A study of Bos taurus with 45 samples.

Results

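The transcriptomes of ruminal papillae were compared between 72% and 89% grain in the same 15 heifers. These diets stand at the end of a stepwise grain transition, which the labels call rapid and the study gradual, and the comparison holds 30 of the 45 samples of the study, 1 per heifer and diet. All 15 animals were cross-bred yearling beef heifers (Angus-Hereford), labelled as healthy, that went through the same transition, so every sample on 89% grain came from an animal already adapted to earlier grain diets, and no heifer stayed on 72% grain. The sample labels write 75% grain (days 13 to 16) and 92% grain (days 21 to 29) where the methods of the study give 72% and 89% grain, and the latter percentages are used here. An intermediate diet was fed between these periods. By the methods of the study, heifers had spent more days on 89% grain at biopsy than on 72% grain. Diet, day, time on the diet and age of the heifer therefore cannot be told apart. Of the 24616 genes in the files, 11473 had more than 1 read per 1000000 reads on genes (1 RPM) in all 15 heifers on at least one of the 2 diets and were tested.

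Ruminal papillae are the finger-like folds of the rumen wall. They are covered by a stratified squamous epithelium whose basal cells divide and whose outer cells cornify. This epithelium absorbs short-chain fatty acids produced by microbial fermentation, exchanges ions and bicarbonate with the rumen contents and forms the barrier to microbes and their products. More grain gives faster fermentation, and the epithelium is known to adapt its growth and transport when grain replaces forage. The papillae are bulk tissue that also holds connective tissue, vessels and immune cells, so fewer cells of a type and less RNA per cell cannot be told apart in what follows. The files give genes by Ensembl ID without names. Names were available for 18 genes that the study itself names, and the keratins and other markers that would check the tissue label could not be matched to IDs.

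Reads on genes, recovered from the RPM, ranged from 22.5 to 35.3 M per sample (M, 1000000 reads) on 72% grain. On 89% grain they ranged from 25.4 to 37.1 M. RPM 1 thus stood for 22.5 recovered reads or more. Mean depth was 29.1 M on 72% and 31.4 M on 89% grain. These means exceed the mean number of reads per sample that the study reports before mapping. The cause was not tested, so the unit of the recovered reads is uncertain. Depth was 2.27 M reads higher on 89% grain, with the difference positive in 11 of 15 heifers (exact paired permutation test, two-sided, p = 0.0514). The part of depth in the gene changes below was not tested. The 10 most abundant genes held 18.6% of the RPM on 72% grain and 18.9% on 89% grain on average (exact paired permutation test, two-sided, p = 0.609), with the highest share, 26.03%, in heifer 286 on 89% grain. This sample also stood farthest from the median profile of its diet, at a root mean square distance of 0.447 on the log2(RPM + 1) scale against 0.301 for the next sample.

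On 72% grain 11322 genes exceeded RPM 1 in every heifer, on 89% grain 11282 genes did, and 11131 genes did so on both diets. The 191 genes found on 72% grain only and the 151 genes found on 89% grain only lay close to the limit. In each of these sets the median number of heifers at or under RPM 1 on the other diet was 1, and mean RPM on that diet was still over 1 for all 191 and all 151 genes. The median of mean RPM was 2.16 on 72% and 1.95 on 89% grain for the 191 genes. For the 151 genes it was 2.27 on 89% and 2.12 on 72% grain. Detection on a single diet in this sense was therefore a matter of 1 heifer for a typical gene.

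Few genes passed the thresholds between the 2 high grain diets. In a paired fit with limma on log2(RPM + 1), in which each heifer was its own control, 91 of the 11473 genes (0.793%) had a Benjamini-Hochberg adjusted p under 0.05. Of these, 50 (0.436%) were higher and 41 (0.357%) lower on 89% grain. A fold change over 1.5 was reached by 14 of the 91 genes (0.122% of those tested), 7 higher and 7 lower (0.0610% each), and these are the genes referred to as called. Before adjustment, 717 of the 11473 genes were higher and 1315 lower at a limma p under 0.05. The counts are of genes that passed, and a gene that did not pass is not shown to be unchanged. Without the pairing, limma gave 0 genes in either direction after adjustment, with 488 higher and 838 lower at an unadjusted p under 0.05 and 0.00% called. With edgeR on the recovered reads, also paired, 171 genes (1.49%) passed, 120 of them higher (1.05%) and 51 lower (0.445%), and 32 (0.279%) also passed the fold minimum, 19 higher (0.166%) and 13 lower (0.113%). When the filter on low values was dropped, 11 of 19366 genes (0.0568%) passed in paired limma, 2 higher (0.0103%) and 9 lower (0.0465%), and 2 were called (0.0103%), both lower. TMM scaling of the RPM, which shifted the median of all genes by 0.02 on the log2 scale, gave 142 higher and 55 lower genes. The share of higher genes among those that passed was thus 54.9% as deposited, 72.1% with TMM scaling, 72.7% with median-of-ratios scaling and 70.2% in edgeR, where the tool changed as well as the scaling. The share also moved with no change of scaling, to 18.2% without the filter on low values and to between 33.3% (without heifer 314, 178 or 360) and 70.5% (without heifer 236) with 1 heifer left out, so no balance of directions can be read from these counts.

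**Figure D1:**
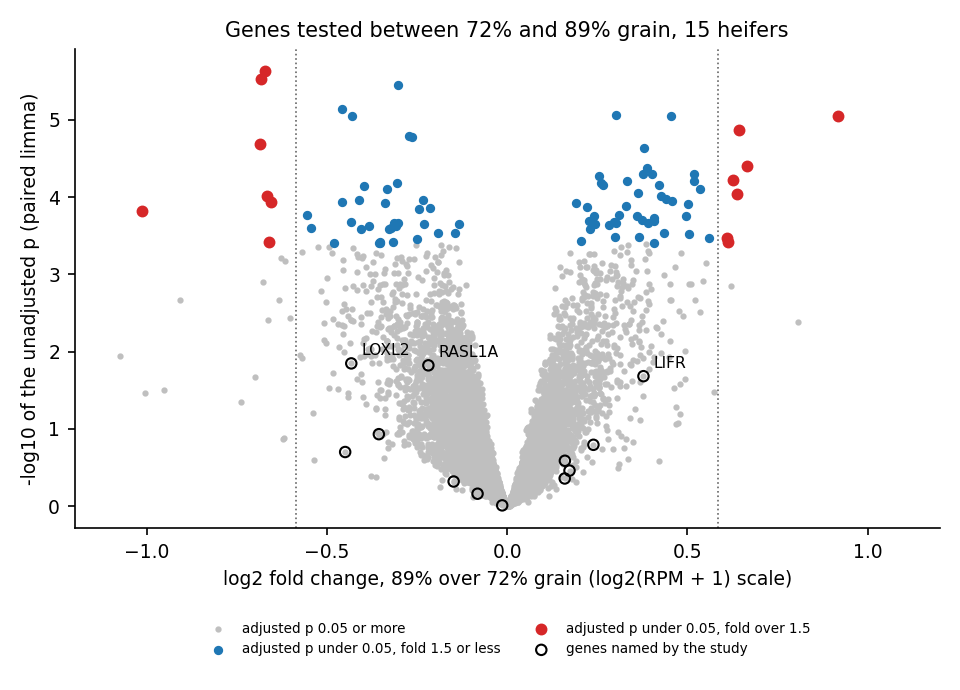
Log2 fold change from 72% to 89% grain on the log2(RPM + 1) scale (horizontal) and -log10 of the unadjusted limma p (vertical) for the 11473 tested genes, 15 heifers paired. The 14 genes with adjusted p under 0.05 and fold over 1.5 (red) lie outside the dotted lines, 77 more genes pass the adjusted p only (blue), and all 12 tested genes named by the study (open circles) lie among the grey points.

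The earlier step is given beside these counts for scale. In the same paired fit on the same genes, 182 genes (1.59%) were called between 72% and 0% grain, 167 higher (1.46%) and 15 lower (0.131%) on 72% grain, and 3186 genes (27.8%) passed without a fold minimum, 2835 higher (24.7%) and 351 lower (3.06%). Between 89% and 0% grain, 247 genes (2.15%) were called, 208 higher (1.81%) and 39 lower (0.340%) on 89% grain, and 2352 (20.5%) passed without a fold minimum, 1933 higher (16.8%) and 419 lower (3.65%). The filter used the 72% and 89% grain samples only. Genes over RPM 1 in every heifer on 0% grain alone, such as FOSB, BMP6 and VNN1, were thus left out of these counts. The 10 most abundant genes held 20.6% of the RPM on 0% grain and 18.6% on 72% grain, and no other scaling was tried for these steps. No balance of directions is therefore read from them. The comparisons share samples, and the numbers are given side by side only.

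The changes of the genes that passed were small. Among the 91 genes the median absolute log2 fold change was 0.38, a change of 29.8%, and 32 of them (35.2%) changed by less than 1.25-fold. Across all tested genes the median absolute log2 fold change was 0.07 and the median log2 fold change was -0.03. For each of the 91 genes, 11 or more of the 15 heifers moved alike, with a median of 13. A gene passes the paired test only where most heifers move alike, so these counts follow from the selection. The direction was shared by 14 or more heifers for 33 of the 91 genes and for 95 of all tested genes, and by all 15 for 5 of the 91. Among all tested genes, 10 moved the same way in all 15 heifers, 5 higher and 5 lower. For 0 of the 11473 genes did the ranges of RPM on 72% and 89% grain lie apart, so even the called genes overlapped between the diets. Without the pairing, 0 of them passed the adjusted p in limma.

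**Figure D2:**
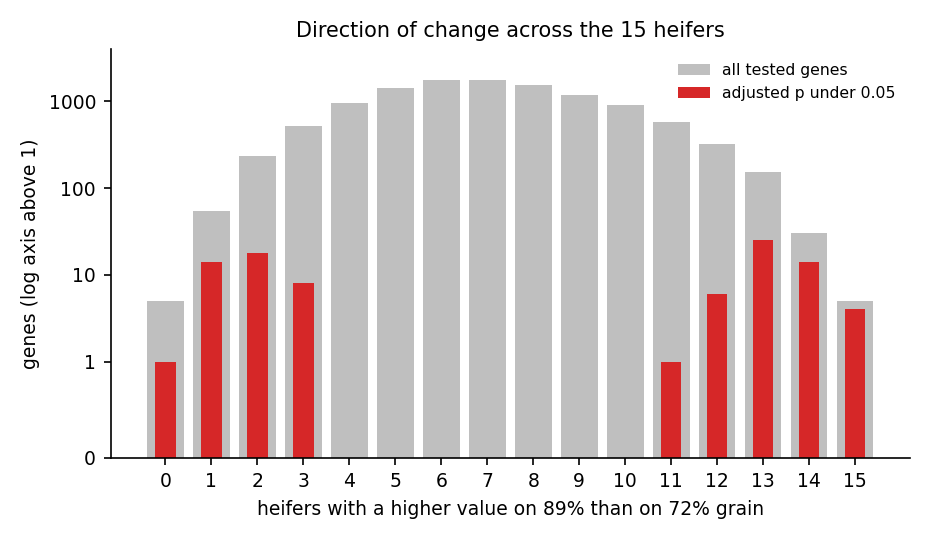
Number of genes (vertical, log axis above 1) by the number of heifers, out of 15, with a higher value on 89% than on 72% grain (horizontal), for all tested genes (grey) and for the 91 genes with limma adjusted p under 0.05 (red). Most genes were higher in 5 to 9 heifers, and the genes that passed were found at both ends, from 0 to 3 and from 11 to 15 heifers.

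The 14 called genes had a mean RPM between 3.78 and 40.2, with a median of 7.71. The median over all tested genes was 22.4. With a mean RPM under 5, 14 of 1672 genes (0.837%) passed the adjusted p, against 37 of 3705 (0.999%) between RPM 5 and 20, 28 of 4570 (0.613%) between RPM 20 and 100, and 12 of 1526 (0.786%) at RPM 100 or more. In the lowest class 10 genes were higher and 4 lower, and at RPM 100 or more 3 were higher and 9 lower. These splits were not recomputed under other settings, so no direction by abundance is read from them. Called genes were 2 of 1672, 9 of 3705 and 3 of 4570 in the classes up to RPM 100, and 0 of 1526 at RPM 100 or more. With 14 called genes, no tie to abundance is read from these counts. The called gene of smallest change stood at 1.53-fold. Below the minimum, the next gene that passed the adjusted p stood at 1.47-fold. The number of called genes moved with the pseudocount, to 11 higher and 9 lower with 0.5 and to 13 higher and 10 lower with 0.1.

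The largest increase among called genes was that of ENSBTAG00000038662. It had 2.22 RPM in the lowest, 9.05 RPM in the median and 21.6 RPM in the highest heifer on 72% grain, and 8.39, 18.1 and 31.2 RPM on 89% grain. The gene rose in 14 of 15 heifers and fell in heifer 352, and the ranges on the 2 diets overlapped. Its log2 fold change on the log2(RPM + 1) scale was 0.92 (standard error, SE, 0.154, n = 15, limma adjusted p = 0.0129). On 0% grain the same gene had 4.29, 13.0 and 50.1 RPM, a wider range than on either high grain diet. Mean RPM was 18.1 ± 14.3 on 0%, 10.005 ± 5.79 on 72% and 18.9 ± 8.39 on 89% grain (SD, n = 15). The lowest of the 3 means was thus that of 72% grain. It passed in limma with each heifer left out in turn, with adjusted p from 0.00749 to 0.0439. It missed the threshold in limma with no filter on low values (adjusted p = 0.0602), with all 45 samples in one fit (adjusted p = 0.0744) and without the pairing (adjusted p = 0.146), and the other 3 genes given by ID did so in the same settings.

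ENSBTAG00000019264 was the second gene by size of increase. Its lowest, median and highest values were 2.13, 4.68 and 14.2 RPM on 72% grain and 6.24, 8.60 and 13.5 RPM on 89% grain. The low end of the range moved up while the high end did not, since the highest heifer on 72% grain stood above every heifer on 89% grain. The gene rose in 13 of 15 heifers, by 0.67 on the log2(RPM + 1) scale on average (SE 0.126, n = 15, limma adjusted p = 0.0307). On 0% grain it had 1.28, 3.77 and 12.8 RPM, so the medians increased from 0% through 72% to 89% grain. Without heifer 192, 314, 178 or 360 it missed the threshold, with limma adjusted p of 0.0729, 0.0678, 0.0681 and 0.0561.

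Among the lower genes, ENSBTAG00000019822 changed most. On 72% grain it had 3.52 RPM in the lowest, 6.93 RPM in the median and 18.4 RPM in the highest heifer, and on 89% grain 0.645, 3.22 and 10.01 RPM. It fell in 12 of 15 heifers, most in heifer 286 (log2 change -2.57), and rose most in heifer 182 (log2 change 1.29). The mean log2 fold change was -1.01 (SE 0.216, n = 15, limma adjusted p = 0.0371), the widest standard error of the 4 genes given here. Before grain feeding it had 1.04, 7.46 and 32.5 RPM, and its log2 fold change was 0.00 from 0% to 72% grain (limma adjusted p = 0.991) and -1.02 from 0% to 89% grain (limma adjusted p = 0.0106), in comparisons that share samples. This call was the least stable of the 4. It was lost when heifer 192, 314, 172, 246, 362, 258, 178, 352 or 360 was left out, with limma adjusted p of 0.0824, 0.0967, 0.0611, 0.0533, 0.0563, 0.0543, 0.0806, 0.0676 and 0.0673.

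ENSBTAG00000010661 was highest on 72% grain. It had 4.79, 7.30 and 9.45 RPM in the lowest, median and highest heifer on that diet, against 1.30, 4.21 and 6.99 RPM on 89% grain and 1.33, 3.83 and 9.03 RPM on 0% grain. Heifer 182 was the only one in which the gene was not lower on 89% than on 72% grain. The log2 fold change was -0.69 (SE 0.123, n = 15, limma adjusted p = 0.0198). From 0% to 72% grain it was 0.72 (limma adjusted p = 0.00278), and from 0% to 89% grain 0.04 (limma adjusted p = 0.902). Without heifer 192 or 178 its adjusted p was 0.0507 and 0.0542. The other 10 called genes had absolute log2 fold changes between 0.61 and 0.68 and moved the same way in 12 to 14 heifers.

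**Figure D3:**
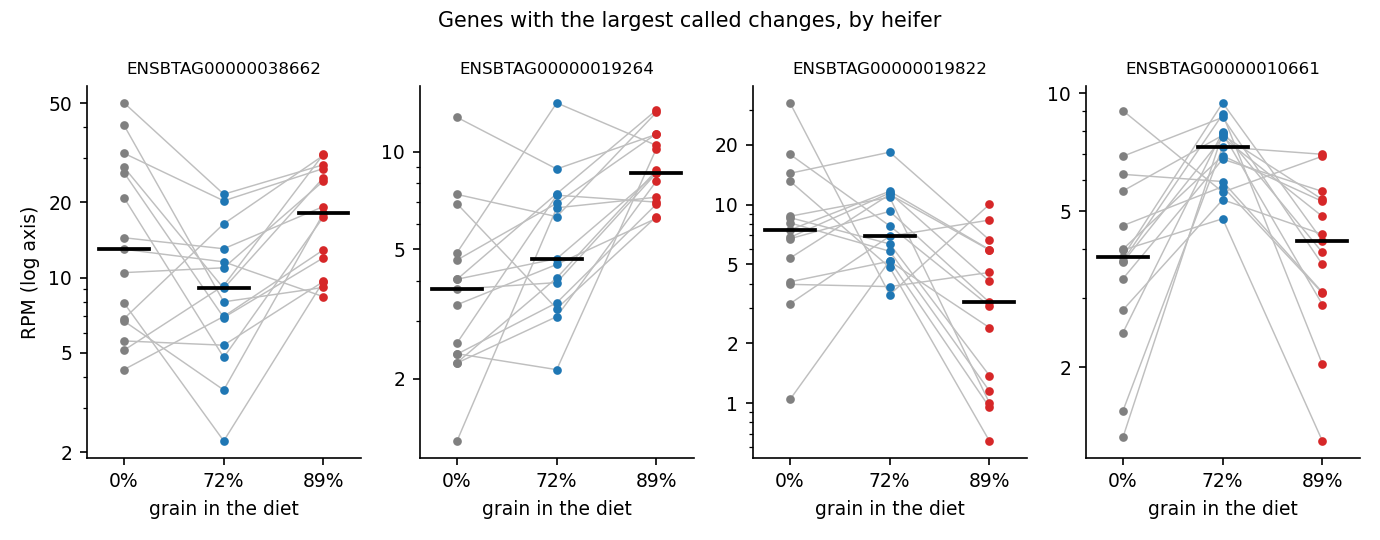
RPM (vertical, log axis) of the 4 genes above in each of the 15 heifers on 0%, 72% and 89% grain (horizontal), with a grey line per heifer and a black bar at the median. From 72% to 89% grain the median moved from 9.05 to 18.1, from 4.68 to 8.60, from 6.93 to 3.22 and from 7.30 to 4.21 RPM, and the points of the 2 diets overlapped for each gene.

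The 18 genes named by the study were then examined over all 15 heifers. They were chosen by the study on these samples, 13 for being over RPM 1 in every heifer on a single diet and 5 (CYP1A1, CYP1B1, CHAC1, CDSN and KLK10) for moving in opposite directions from 72% to 89% grain in subsets of these heifers. They are not an independent selection, and for the 5 genes opposite changes bring the mean over all heifers toward 0, so nothing is read from the lack of a call. Of the 18 genes, 12 met the filter for this comparison, and 0 of the 12 passed an adjusted p of 0.05 in limma (background 0.793%) or in edgeR, while 3 of them, LOXL2, RASL1A and LIFR, had an unadjusted limma p under 0.05. The 6 genes below the filter are given with values from a paired limma fit without the filter, over 19366 genes.

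Among the genes of xenobiotic metabolism and glutathione turnover, the changes of single heifers went both ways. CYP1A1, a cytochrome P450 induced through the aryl hydrocarbon receptor, had 54.4, 88.7 and 237 RPM in the lowest, median and highest heifer on 72% grain and 37.8, 79.1 and 254 RPM on 89% grain. It was higher on 89% grain in 6 of 15 heifers (log2 fold change -0.15, SE 0.205, limma adjusted p = 0.734). CYP1B1, a related cytochrome P450, had 4.97, 11.6 and 50.3 RPM on 72% grain and 5.82, 15.6 and 33.3 RPM on 89% grain. For both genes the ranges of the 2 diets overlapped. CYP1B1 was higher in 9 of 15 heifers (log2 fold change 0.16, SE 0.201, limma adjusted p = 0.706). CHAC1, which degrades glutathione, was among the genes below the filter, with a median of 3.16 RPM on 72% and 2.81 RPM on 89% grain and a log2 fold change of 0.06 (SE 0.441, limma adjusted p = 0.971).

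The cornified layer genes spread widely between heifers. KLK10, a secreted serine protease of the kallikrein family, had 1.55, 6.99 and 88.0 RPM on 72% grain and 1.33, 8.05 and 27.9 RPM on 89% grain. Its change ranged from a log2 fall of -4.81 in heifer 352 to a rise of 2.77 in heifer 246, around a mean of -0.01 (SE 0.399, limma adjusted p = 0.991). The sign of this mean was not stable and turned positive (0.0032) with TMM scaling. CDSN, which encodes corneodesmosin, a protein that holds cornified cells together, lay below the filter and had 0.991, 17.0 and 73.1 RPM on 72% grain and 0.258, 14.3 and 146 RPM on 89% grain. The same 2 heifers marked its extremes, with log2 changes of -5.06 in heifer 352 and 2.40 in heifer 246. Over the 15 heifers its log2 fold change was -0.05 (SE 0.499, limma adjusted p = 0.983). Both genes were higher on 89% grain in 9 of 15 heifers.

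Of the matrix genes, LOXL2, a lysyl oxidase that cross-links collagen, had 3.03, 4.74 and 9.70 RPM on 72% grain and 0.984, 3.23 and 7.60 RPM on 89% grain. It was lower on 89% grain in 13 of 15 heifers. The log2 fold change of -0.43 (SE 0.160) gave a limma adjusted p of 0.166 and an unadjusted limma p of 0.0142. CTGF, a matrix-associated protein of connective tissue growth, had medians of 5.27 and 4.76 RPM and was higher on 89% grain in 7 of 15 heifers. The mean change was -0.08 on the log2 scale (SE 0.201, limma adjusted p = 0.864) and became 0.04 without heifer 286.

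ABCG1, a transporter that moves cholesterol out of cells, had 0.488, 5.94 and 9.39 RPM on 72% grain and 1.77, 5.61 and 13.6 RPM on 89% grain, with 8 of 15 heifers higher on 89% grain. The log2 fold change was 0.24 (SE 0.164, limma adjusted p = 0.462). VNN1, a pantetheinase that releases cysteamine and pantothenic acid, lay below the filter, since 3 heifers on 72% grain and 8 heifers on 89% grain were at or under RPM 1. Its lowest, median and highest values were 0.533, 1.89 and 6.71 RPM on 72% grain and 0.419, 0.984 and 2.96 RPM on 89% grain. VNN1 was lower on 89% grain in 12 of 15 heifers. The log2 fold change of -0.57 (SE 0.173) gave an unadjusted limma p of 0.00473 and an adjusted p of 0.158 over the 19366 genes.

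The immune and signaling genes among the 18 follow, and those that met the filter were not called. They are too few to speak for such genes as a class. C-X-C motif chemokine 6, a neutrophil attractant, had 1.67, 3.97 and 20.5 RPM on 72% grain and 0.550, 2.41 and 13.8 RPM on 89% grain, with a fall in 9 of 15 heifers (log2 fold change -0.45, SE 0.338, limma adjusted p = 0.508). BOLA-A, a heavy chain of bovine MHC class I, lay below the filter because 1 heifer was under RPM 1 on each diet. Its medians were 8.50 and 8.65 RPM, and its log2 fold change of -0.04 (SE 0.065, limma adjusted p = 0.827) had the smallest standard error of the 18 genes. BOLA-A belongs to a family of near-identical genes whose reads the counting may split, so its level is uncertain. LIFR, the receptor of leukemia inhibitory factor, had 0.892, 3.78 and 8.22 RPM on 72% grain and 1.69, 4.76 and 9.11 RPM on 89% grain. It was higher on 89% grain in 12 of 15 heifers (log2 fold change 0.38, SE 0.150, limma adjusted p = 0.196).

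BMP6, a ligand of the TGF-beta family, and FOSB, a subunit of the AP-1 transcription factor, were both below the filter. BMP6 had a median of 3.11 RPM on 72% and 1.97 RPM on 89% grain and was lower in 11 of 15 heifers (log2 fold change -0.37, SE 0.146, limma adjusted p = 0.267). FOSB was also lower in 11 of 15 heifers, with medians of 4.30 and 1.68 RPM. Its mean nevertheless was higher on 89% grain, 10.8 ± 19.9 RPM against 4.07 ± 2.70 RPM (SD, n = 15), with the highest heifer at 66.0 RPM. The log2 fold change was 0.03 (SE 0.473, limma adjusted p = 0.990), and the largest rise, 4.26, was that of heifer 262. The remaining named genes were RASL1A (log2 fold change -0.22, limma adjusted p = 0.171), lower in 12 of 15 heifers, CDHR2, a cadherin of the brush border (0.17, limma adjusted p = 0.638), CXorf57 (-0.36, limma adjusted p = 0.404) and an uncharacterized protein, ENSBTAG00000009144 (0.16, limma adjusted p = 0.563).

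**Figure D4:**
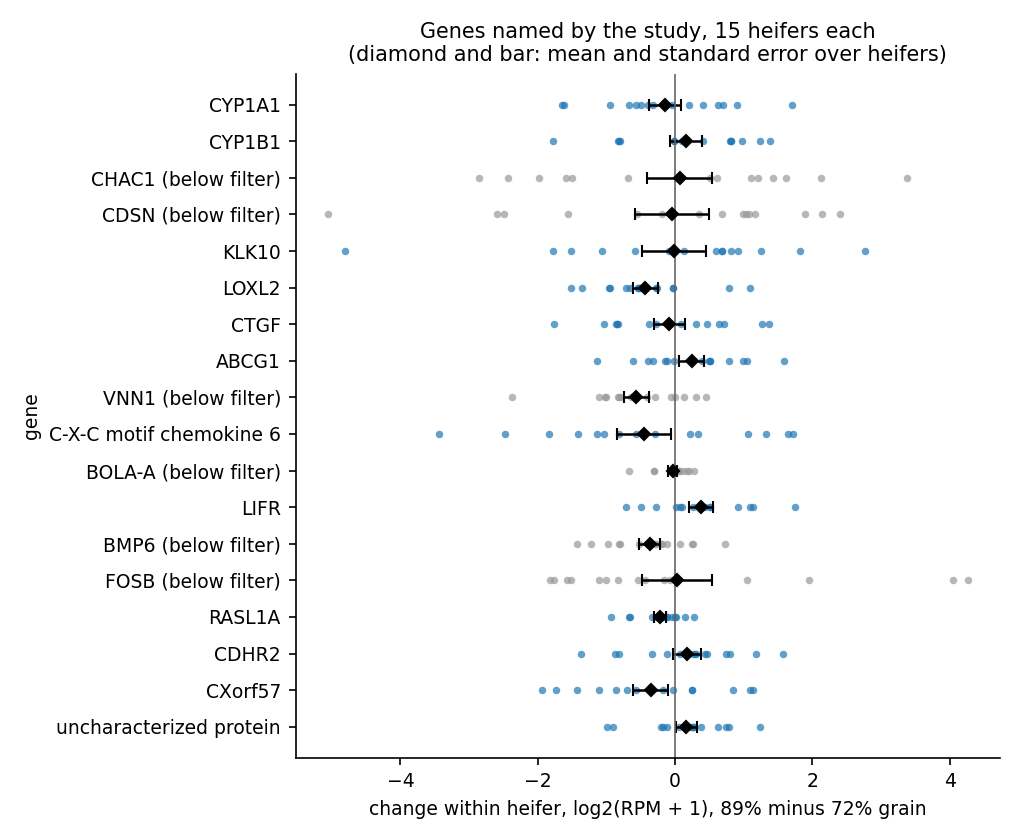
Change within each heifer from 72% to 89% grain in log2(RPM + 1) (horizontal) for the 18 genes named by the study (vertical), with 15 heifers per gene, blue for the 12 tested genes and grey for the 6 below the filter. Diamonds and bars give the mean and standard error over heifers; the points spread to both sides of 0 for each gene, with wide spreads for CDSN, FOSB, CHAC1 and KLK10.

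The heifers differed in how far the profiles of their samples on the 2 diets lay apart. With 1 sample per heifer and diet, a change of the animal and a difference between biopsies or libraries cannot be told apart. On 72% grain the sample of heifer 262 stood farthest from the median profile, at 0.344 against 0.335 for the next sample. It had 22.5 M reads on genes, against 32.7 M in the same heifer on 89% grain. The median absolute log2 change within a heifer ranged from 0.12 in heifer 172 to 0.30 in heifer 286. In heifer 172, 349 of the tested genes (3.04%) changed by more than 1.5-fold, whereas 2093 genes (18.2%) did so in heifer 286, 1662 (14.5%) in heifer 262 and 1570 (13.7%) in heifer 352. These 3 heifers together held a large share of the summed squared change, 13.8%, 10.8% and 13.0% in turn. In heifer 286 only 26.5% of the genes were higher on 89% grain, against 57.4% in heifer 192. The 10 most abundant genes held 20.4% of the RPM on 72% and 26.0% on 89% grain in heifer 286. In heifer 192 they held 18.5% and 17.0%. RPM have a fixed sum, so a larger share of these genes lowers the RPM of the rest. The part of scaling in the values by heifer was not tested. The median SD between heifers was 0.200 on 72% and 0.213 on 89% grain in log2(RPM + 1), and without heifer 286 it was 0.196 and 0.193.

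The profiles of change had little in common from heifer to heifer. Over the 105 pairs of heifers, the correlation of the log2 changes across genes had a median of 0.102 and ranged from -0.372 (heifers 182 and 362) to 0.483 (heifers 314 and 262), and it was negative for 33 pairs. This is a description across genes, which are not independent replicates. The first component of the changes, from a singular value decomposition without centring, held 25.2% of the summed squared change. Heifers 352 and 286 carried 37.4% and 25.1% of its squared loading. Even the 14 called genes moved with the mean in only 6 cases in heifer 182 and 8 in heifer 236, against 12 to 14 in each of the other 13 heifers.

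Diet held 5.43% of the variance of the 30 profiles (exact test over the 32768 exchanges of diets within heifers, p = 0.00238). Any split of the samples holds some share, and 5.43% is not corrected for this, so it is not the part due to diet. With each heifer left out in turn, the share held by diet was between 4.95% and 6.24%, with a highest exact p of 0.0120. The number of single genes that passed was far less stable. With all 15 heifers it was 91. It was 13 without heifer 192, 12 without heifer 314, 36 without heifer 172, 21 without heifer 246, 22 without heifer 262, 12 without heifer 178, 22 without heifer 352 and 12 without heifer 360. It was 200 without heifer 236, 226 without heifer 182 and 182 without heifer 294. Leaving out heifer 170, 362, 258 or 286 gave 99, 68, 61 and 92 genes in limma.

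**Figure D5:**
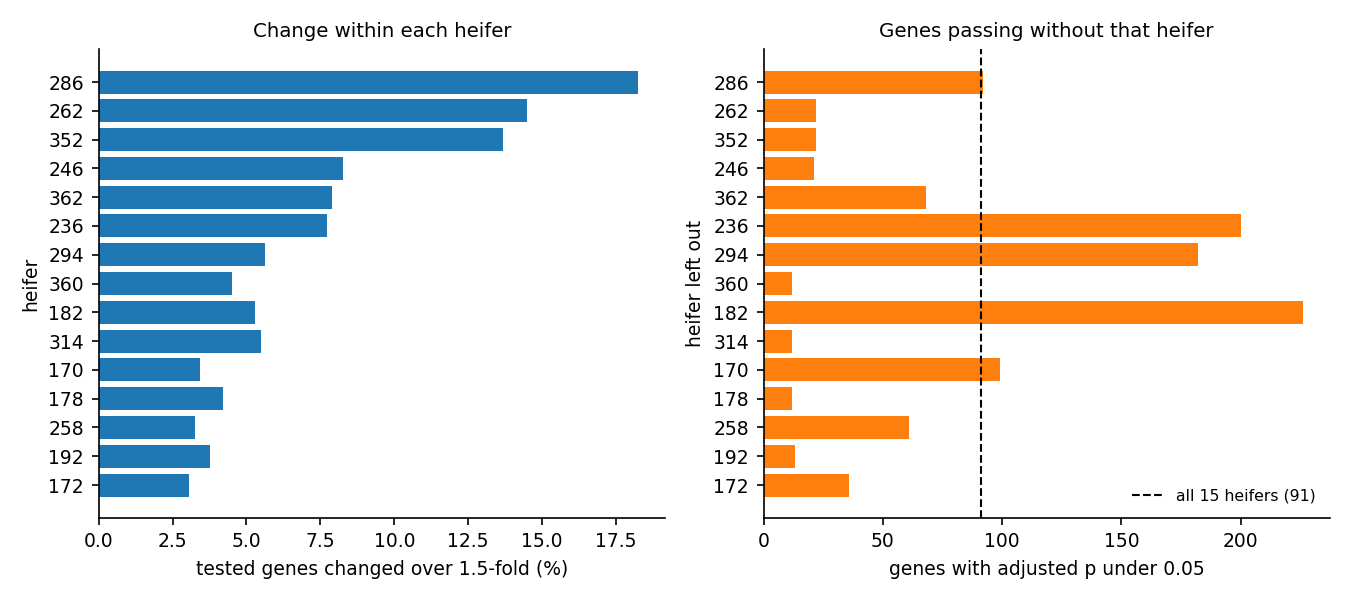
Share of the 11473 tested genes that changed by more than 1.5-fold within each heifer (left, %) and number of genes with limma adjusted p under 0.05 when that heifer was left out (right), with heifers ordered by their median absolute log2 change. The share ran from 3.04% in heifer 172 to 18.2% in heifer 286, and the number from 12 to 226 around the 91 genes found with all 15 heifers (dashed line).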

How the data were processed

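RNA of ruminal papillae was sequenced as paired-end reads. The authors used CASAVA 1.8, aligned reads to bovine genome UMD 3.1 with TopHat2 2.0.10, counted reads per Ensembl gene with HTSeq and deposited RPM, which sum to 1000000 per sample. The strand setting of the counting is not given in the sources used here, so overlapping and antisense genes may share reads. Every value was a whole number of reads to within 0.01 of a read, which gave the depths. As an alternative, edgeR 4.0.16 was run on those reads. Their unit is uncertain, since on average they outnumber the reads that the study reports, and the edgeR results share this limit. No pair of samples agreed within sampling noise (smallest chi-square per degree of freedom 20.7 over 435 pairs).

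Genes with RPM over 1 in all 15 heifers on 72% or 89% grain were tested with limma 3.58.1 (R 4.3.3) on log2(RPM + 1), with the heifer as a block and the prior variance following mean expression; the fold change on this scale understates changes of low genes. A gene was called at fold over 1.5 and adjusted p under 0.05 (Benjamini-Hochberg). Samples were paired by the animal in the labels. Deviations from the diet means correlated at 0.0313 to 0.534 (median 0.329) within the 15 heifers and at a median of -0.0238 between heifers. Permutation tests were exact, in Python 3.11.15 with scipy 1.17.1. The fits were also run on simulated counts with the same fold change in every heifer. That setting is simpler than these data, so nothing about the stability of the counts is read from it.

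The comparison, gene lists and named genes were chosen with earlier results of these data known. The rule for named genes took the largest called changes in each direction, the smallest p-values and the genes named by the study. The RefSeq table matched 0 IDs, so 2 IDs per direction are given, with 18 study genes, 13 of them paired with an ID there. The other 5 (KLK10, CDSN, CHAC1, CYP1B1 and CYP1A1) it names without an ID, and theirs were inferred from its lists and fold changes. The 39 gene lists written by symbol (607 symbols, 12 matched) were not analysed here. Sequencing lanes of single samples are not given in the sources used here, so no value was computed within lanes, and pH groups were not used. Alternatives were other pseudocounts, scalings, filters, fold minimums and tools, no block, all 45 samples in one fit, and each heifer left out.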

Additional observations from a re-analysis of the deposited data

How the results depend on the processing

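Without the replicate block, that is without the pairing of samples by heifer, 0 genes were higher and 0 lower, with or without a fold minimum. Against 7 called genes higher, limma gave 13 with a pseudocount of 0.1, 11 with 0.5, 0 with no filter on low values, 0 with a fold minimum of 2 and 2 with all 45 samples in one fit, and edgeR gave 19. Against 7 lower, it gave 2 with no filter, 1 with a fold minimum of 2 and 1 with all 45 samples, and edgeR gave 13. Without a fold minimum, where 50 genes were higher, the number was 142 with TMM scaling, 144 with median-of-ratios scaling, 2 with no filter, 9 with all 45 samples and 120 in edgeR. Where 41 were lower, it was 9 with no filter and 7 with all 45 samples. The unfiltered fit tested 19366 genes, so the adjustment ran over more of them. Its standard errors differed as well, for ENSBTAG00000038662 0.165 against 0.154 with the filter. The causes of all these differences were not tested.

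With 1 heifer left out, called genes numbered 2 to 16 higher and 2 to 14 lower, and genes without a fold minimum 4 to 141 higher and 8 to 121 lower. The log2 fold change of KLK10 changed sign with a pseudocount of 0.1 (0.0065), TMM scaling (0.0032), median-of-ratios scaling (0.0056) and edgeR (0.126), and ranged from -0.21 to 0.33 with 1 heifer left out. That of CTGF ranged from -0.19 to 0.038, the latter without heifer 286. For the other 10 named genes that met the filter and the 4 genes given by ID, the direction was kept under these alternatives. The 6 named genes below the filter were fitted once, and their directions were not tried under other settings. Depth, at 22.5 recovered reads or more for RPM 1, limits genes near the filter.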
